A study of Mus musculus with 12 samples.

Results

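The genes described here are 9 adhesion molecules of white blood cells: Cd44, the receptor for hyaluronan; Selplg, the mucin that carries the P-selectin binding site; Icam1, a counter-receptor of the leukocyte integrins; the integrin alpha chains Itgal, Itgam, Itgax and Itga4; and the beta chains Itgb2 and Itgb7. They were taken by gene symbol, 9 of the 21900 genes of the annotation used, and read out by the accessible regions that lie in or within 10 kb of their gene bodies or that the authors' deposited tables annotated to them. This gave 82 of 73156 regions, of which 73 were taken by the gene window and 9 (8 upstream of Cd44, 1 upstream of Itga4) by a row of those tables alone. No region was shared by 2 of the genes, and 10 of the 82 also overlapped the body of another gene.

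Accessibility was measured by ATAC-seq, in which the Tn5 transposase cuts and tags open DNA, in mouse granulocyte-monocyte progenitors from C57BL6 bone marrow that carry ER-HOXA9, a HOXA9 protein joined to the hormone-binding domain of the estrogen receptor. All cells, controls included, grew with stem cell factor and 0.5 uM beta-estradiol, the ligand that keeps such a fusion active. There are 12 libraries, 2 biological replicates for each of 6 groups: Day0, untreated at the start; Vehicle, DMSO for 2 days; LSD1i, 200 nM GSK-LSD1, which inhibits the histone demethylase LSD1; 6MP, 5 uM mercaptopurine, a purine analogue; CER, 5 uM cerulenin, a fatty acid synthase inhibitor; and Combo, all 3 drugs at these doses, the last 4 also for 2 days. The labels do not say whether the 2 replicates of a group came from separate mice or separate cultures, so the p-values measure the spread between these libraries only. Every group, Day0 included, is a culture with the fusion protein and its ligand, and none is a progenitor without them. The labels do not give how far the cells of each group had differentiated.

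Leukocyte integrins are pairs of an alpha and a beta chain. Itgb2 pairs with Itgal, Itgam or Itgax and its pairs bind Icam1 among other ligands, while Itga4 pairs with Itgb7 or with Itgb1 and binds Vcam1, Madcam1 and fibronectin. Selplg and glycoforms of Cd44 bind selectins and start the rolling of a cell on the vessel wall, after which integrins arrest it. Itgam and Itgax are used as surface markers of maturing myeloid cells, and Itga4 and Cd44 are already carried by progenitors.

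The value used throughout is the summit signal, the log2 of the fragment pileup at the strongest summit of a called peak over the lowest background of its library, centred on the median of the regions called in all 12 libraries of the series. A difference of 1 between groups is therefore a 2-fold change. Libraries held 42651 to 56398 called peaks, with a background of 2.44 to 4.55 fragments per position and a median summit pileup of 50 to 75 fragments. Before centring, the median signal at shared regions ran from 16.9-fold over background in 6MP replicate 1 to 42.7-fold in Combo replicate 2, and 6MP replicate 1 accordingly stands apart. A centred value does not carry that global difference, and the counts of all regions depend on it: with centring 1654 regions opened and 847 closed in LSD1i against Vehicle, without it (scaling by depth alone) 169 and 31, while the authors' deposited table lists 3518 opened and 17729 closed. For Combo against Vehicle the splits were 2119 and 1326 with centring, 1200 and 35 without it, and 6813 and 1142 in the authors' deposited table. Leaving out the centring moved the median difference of all regions by amounts between -0.46 (6MP against Vehicle) and 0.38 (Combo against LSD1i). Starts of 6 of 9 genes that mark granulocyte-monocyte progenitors (Kit, Cd34, Mpo, Ms4a3, Cebpa and Spi1) held a peak in all 12 libraries, those of Fcgr3, Elane and Prtn3 in none. For T and NK cell genes the count was 0 of 4, for dendritic cell genes 1 of 4 (Flt3), for B cell genes 2 of 3 (Cd79a and Ebf1), for megakaryocyte genes 3 of 4, and for stromal and endothelial genes 1 of 3 (Pdgfrb). An open start is not expression, and in a bulk library a changed share of cells and a changed accessibility per cell cannot be told apart.

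At the transcription starts, the 9 genes fell into 4 levels, and within each of the 12 libraries every gene of a level lay above every gene of the next. The start of Itga4, the alpha chain that binds Vcam1, was the most open, with a median signal of 7.13 over the 12 libraries, or 140-fold over background. Cd44, Itgb2 and Icam1 followed with medians of 6.39, 6.14 and 6.14. The regions at or nearest the starts of Selplg, Itgal and Itgb7 came next, with 5.69, 5.67 and 5.53. The starts of Itgax and Itgam, the alpha chains of the myeloid complement receptors, were the least open, with medians of 3.95 each, 15.5-fold and 15.4-fold over background. Across libraries the second level (5.92 to 6.62) and the one after it (5.30 to 5.98) overlapped slightly. Within a level the ranges of neighbours overlapped: the signal of Cd44 was above that of Itgb2 in 10 of 12 libraries (mean difference 0.21 ± 0.16, SD), that of Itgb2 above Icam1 in 4 of 12, Selplg above Itgal in 7 of 12, Itgal above Itgb7 in 7 of 12 and Itgax above Itgam in 6 of the 11 libraries that held both. The signal is a pileup at a summit and not a count over a length, so it is compared between genes as the height of a site.

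**Figure D1:**
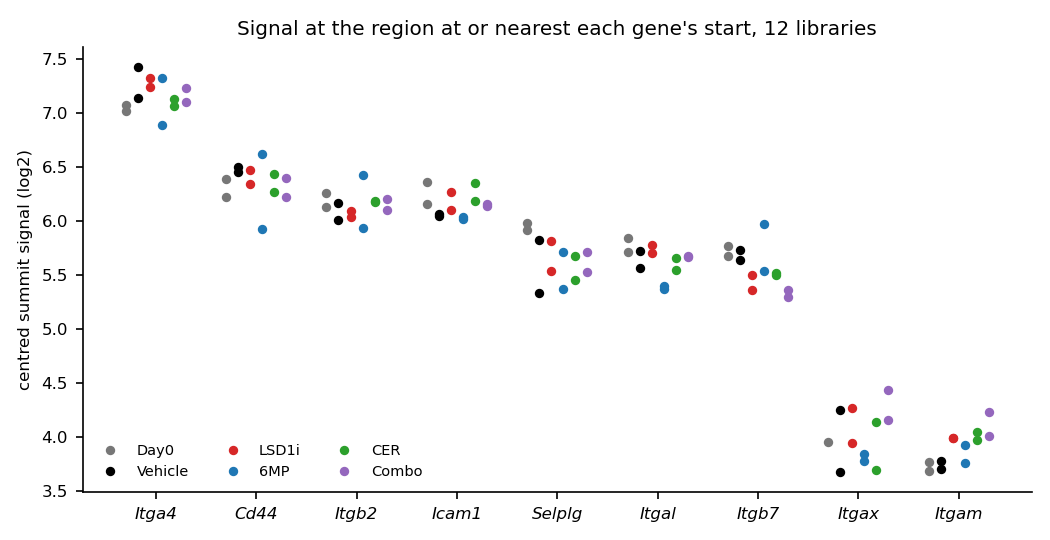
Centred summit signal (log2, vertical axis) of the region at or nearest the transcription start of each gene (horizontal axis), 1 point per library, coloured by group, with genes ordered by their median. Itga4 lies highest (6.89 to 7.42) and Itgax and Itgam lowest (3.67 to 4.43), and the points of the 6 groups intermingle within most genes.

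The sequences before the starts of Itga4, Itgam and Itgax, at the ends of this order, are shown, with that of Icam1, which holds the most CpG pairs, since peaks lie on them; Icam1 was chosen after its values were seen. They come from RefSeq on GRCm38.p6, the assembly also named mm10, and run up to the annotated gene without any transcribed base; capitals mark matches to the motifs searched. Promoter sequence was matched for 6 of the 9 genes, and Selplg, Itgal and Itgb2 had no match. All of the bases printed lie inside the region called at that start.
Itga4 (chr2:79255176-79255425, plus strand): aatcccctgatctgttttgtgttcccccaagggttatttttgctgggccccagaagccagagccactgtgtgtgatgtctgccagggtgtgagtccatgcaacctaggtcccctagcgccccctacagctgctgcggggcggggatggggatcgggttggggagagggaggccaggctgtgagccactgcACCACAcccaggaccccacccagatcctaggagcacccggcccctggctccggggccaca
Icam1 (chr9:21015690-21015939, plus strand): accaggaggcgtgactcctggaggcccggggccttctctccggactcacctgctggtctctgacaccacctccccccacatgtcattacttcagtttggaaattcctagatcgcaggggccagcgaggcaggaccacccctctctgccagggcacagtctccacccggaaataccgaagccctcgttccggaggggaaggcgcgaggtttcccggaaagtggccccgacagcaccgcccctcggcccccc
Itgam (chr7:128062390-128062639, plus strand): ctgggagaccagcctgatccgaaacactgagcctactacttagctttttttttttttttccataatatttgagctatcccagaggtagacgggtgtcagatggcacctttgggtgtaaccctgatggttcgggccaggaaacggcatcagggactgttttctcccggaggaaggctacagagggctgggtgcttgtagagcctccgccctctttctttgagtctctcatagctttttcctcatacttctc
Itgax (chr7:128129300-128129525, plus strand): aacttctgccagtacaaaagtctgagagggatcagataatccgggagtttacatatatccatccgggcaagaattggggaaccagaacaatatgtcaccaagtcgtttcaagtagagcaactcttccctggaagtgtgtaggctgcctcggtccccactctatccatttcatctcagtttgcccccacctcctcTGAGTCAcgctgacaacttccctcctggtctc
Itga4, with the highest signal, and Icam1, in the second level, had 64.0% and 65.2% G and C in their 250 bases before the start (for Itgax, 24 of these lie inside the annotated gene and are not printed). Itgam and Itgax, with the lowest signals, had 49.6% and 50.0%, against a median of 52.4% over 32851 promoters of the same length. Cd44 and Itgb7 had 56.4% and 56.0%. Icam1 held 15 CpG pairs, the other 5 genes 5 or 6, and the median promoter 6. Motifs searched on both strands were GAGGAAGT (ETS factors such as PU.1), TTGCNNAA and its stricter form TTGCGCAA (C/EBP), TGTGGT (RUNX), TGANTCA (AP-1), AATCNNNGC (GFI1) and TGATTNAT (HOX with PBX). The only matches among the 6 genes were 1 RUNX match at Itga4 (on the other strand, as ACCACA), 1 AP-1 match at Itgax (TGAGTCA) and 1 GFI1 match at Itgb7 (AATCTCTGC). Of all promoters, 14.0% hold the RUNX letters, 6.75% the AP-1 letters, 8.87% the GFI1 letters, 9.56% and 0.164% the 2 C/EBP forms, 2.44% the ETS letters and 2.82% the HOX letters. A match to so few letters describes the sequence and is not a binding site.

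Of the 82 regions, 52 could be tested in at least 1 of the 6 comparisons, because limma was run on regions called in all 4 libraries compared; the other 30 could not, and 15 of these were called in 1 library only. Of 282 tests, 8 passed an adjusted p of 0.05, at 4 regions, and every one of the 4 belonged to Cd44. Cd44 holds 24 of the 82 regions, and its passing regions at -65.7 and -71.0 kb were taken by a row of the deposited tables alone. Those tables rest on the same libraries, so the passes there lend no support to the set. In LSD1i against Vehicle 3 of 47 regions opened and 0 closed, while of all regions 4.00% opened and 2.05% closed. In Combo against Vehicle 3 of 50 opened and 0 closed, against 4.96% and 3.11% of all regions. The deposited tables chose 9 of the 82 regions, so the share is better read over the regions chosen by the gene window: 1 of 40 opened in LSD1i (2.5%) and 2 of 42 in Combo (4.76%), shares near those of all regions. Vehicle against Day0 gave 1 opened region of 44 (1 of 37 by window), against 0.0812% of all regions called. Combo against LSD1i gave 1 opened of 47 (1 of 40 by window), against 0.112%. CER against Vehicle gave 0 of 48, against 0.328% of all regions. At an unadjusted limma p under 0.05 there were 6 of the 48, against 12.08% of all regions. 6MP against Vehicle gave 0 of 46, against 0.00%, and 2 of the 46 at an unadjusted limma p under 0.05, against 5.07% of all regions. In the last contrast limma called 0 of 37145 regions of any gene, and 1882 had an unadjusted p under 0.05. Without Vehicle replicate 2 the counts were 5 in LSD1i (4 opened, 1 closed) and 5 in Combo (4 opened, 1 closed); without Vehicle replicate 1 they were 3 in Vehicle against Day0, 1 in CER and 1 in Combo, and without LSD1i replicate 2 the LSD1i count was 1. The single calls in Vehicle against Day0 and in Combo against LSD1i were lost in 3 of 4 and in 4 of 4 fits that left out 1 library. The median difference of the tested regions was 0.0030 in LSD1i and 0.04 in Combo, beside -0.04 and -0.09 for all regions.

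**Figure D2:**
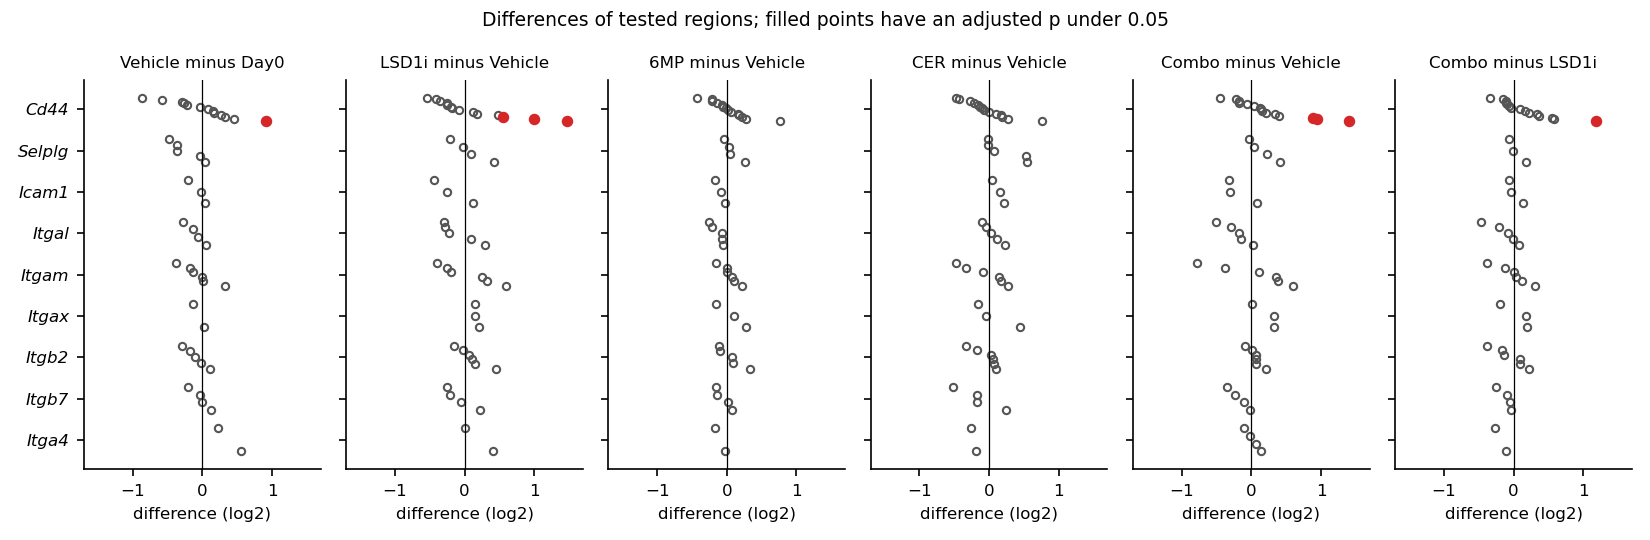
Difference in centred summit signal (log2, horizontal axis) of each tested region, by gene (vertical axis), in the 6 comparisons, 1 point per region; filled points passed an adjusted p of 0.05 by limma. All 8 filled points lie in the row of Cd44 and to the right of 0. Those of the regions at -65.7 and -71.0 kb belong to regions that the deposited tables alone brought into the set.

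Cd44, whose product anchors progenitors to hyaluronan in the marrow, had the most regions, 24 along 97.1 kb downstream and 84.8 kb upstream of its start (gene body chr2:102811141-102901669, mm10, minus strand). Of these, 13 were called in all 12 libraries and 5 in 1 library only. A pair of distant regions, one inside the far end of the gene and one far upstream, were open to a higher degree in every library that received the LSD1 inhibitor than in any other library. Another, in the gene body, was lowest in Vehicle and LSD1i. The start itself stayed within a range of 5.92 to 6.62 in the 12 libraries and passed in no comparison.

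The region 65.7 kb upstream (chr2:102967384-102968831) lies between genes and is nearer to the body of Pdhx than to that of Cd44, to which the authors' deposited table annotated it. Its signal was 4.16 and 3.90 in Day0, 4.62 and 4.35 in Vehicle, 5.95 and 5.96 in LSD1i, 4.52 and 4.43 in 6MP, 4.63 and 4.53 in CER and 5.86 and 5.91 in Combo. The 4 libraries with the LSD1 inhibitor, at 5.86 to 5.96, lay above all 8 others, at 3.90 to 4.63. LSD1i exceeded Vehicle by 1.47 ± 0.16 (log2, SE, n = 2 per group), a 2.77-fold change, and Combo exceeded it by 1.40 ± 0.16. The raw pileup was 94 to 108 fragments in Vehicle, 236 to 282 in LSD1i and 306 to 326 in Combo. It is neither divided by depth nor centred, so it does not compare the groups as the signal does. The authors' deposited table for LSD1i lists levels of 9.48 and 10.45 for Vehicle and LSD1i (fold 0.97 on the log2 scale, FDR 1.15e-08), and that for Combo 9.39 and 10.82 (fold 1.43, FDR 1.22e-09). Those rows brought the region into the set, so its difference in these 2 contrasts is a description, and its passing the threshold there lends no support to the set. The other contrasts share the Vehicle, LSD1i or Combo libraries with those tables and are descriptions too. CER differed from Vehicle by 0.10 ± 0.16, 6MP by -0.01 ± 0.16 and Combo from LSD1i by -0.07 ± 0.16 (95% confidence interval -0.39 to 0.25). Leaving out any 1 library kept the LSD1i and Combo differences past the threshold. Vehicle lay 0.45 ± 0.16 above Day0.

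The region 85.7 kb into Cd44 (chr2:102815009-102815943, near the far end of the gene body) was taken by the gene window and is listed for Cd44 in none of the deposited tables used. Overlaps with rows under other gene symbols were counted only over all regions of these genes together, and are not given for this region. Its signal was 3.61 and 3.43 in Day0, 4.11 and 4.76 in Vehicle, 5.35 and 5.51 in LSD1i, 4.07 and 3.95 in 6MP, 4.19 and 4.25 in CER and 5.37 and 5.27 in Combo. Here too the 4 libraries with the LSD1 inhibitor (5.27 to 5.51) lay above all others (3.43 to 4.76), and the 2 Day0 libraries were the lowest. LSD1i exceeded Vehicle by 0.99 ± 0.19 (limma adjusted p = 0.0012) and Combo exceeded Vehicle by 0.89 ± 0.19 (limma adjusted p = 0.0024). Both comparisons share the Vehicle libraries. Vehicle exceeded Day0 by 0.91 ± 0.19, just past the threshold (limma adjusted p = 0.049). Combo and LSD1i differed by -0.11 ± 0.19 (95% confidence interval -0.49 to 0.28, limma adjusted p = 0.94). The 2 Vehicle libraries differ by more than any other pair here, and without Vehicle replicate 1 the differences fell to 0.67 in LSD1i (limma adjusted p = 0.077) and 0.56 in Combo (limma adjusted p = 0.12), and without LSD1i replicate 2 the LSD1i difference was 0.91 (limma adjusted p = 0.057). The difference of Vehicle from Day0 was 0.59 without Vehicle replicate 2 (limma adjusted p = 0.98), 1.0 without Day0 replicate 1 (0.15) and 0.83 without Day0 replicate 2 (0.51).

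**Figure D3:**
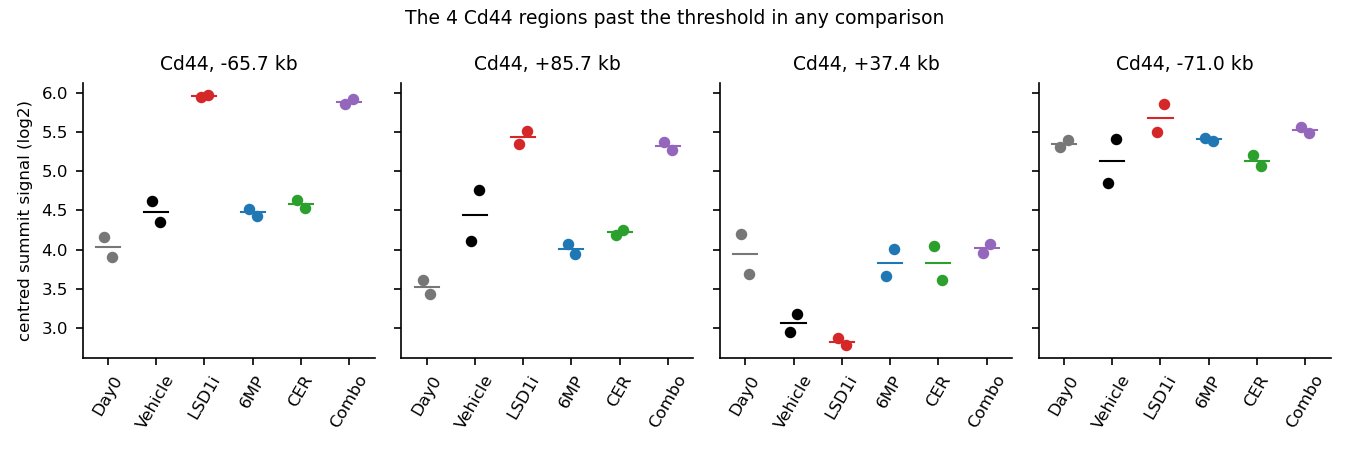
Centred summit signal (log2, vertical axis) in each of the 12 libraries, by group (horizontal axis), at the 4 Cd44 regions that passed the threshold in any comparison; bars are group means of 2 libraries. At -65.7 and +85.7 kb the 4 LSD1i and Combo libraries lie above the other 8, and at +37.4 kb the 4 Vehicle and LSD1i libraries lie below the other 8.

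The region 37.4 kb into Cd44 (chr2:102863378-102864268) had another order. Its signal was 4.20 and 3.69 in Day0, 2.95 and 3.18 in Vehicle, 2.87 and 2.78 in LSD1i, 3.67 and 4.00 in 6MP, 4.05 and 3.62 in CER and 3.96 and 4.07 in Combo. The 4 Vehicle and LSD1i libraries, at 2.78 to 3.18, lay below all 8 others, at 3.62 to 4.20, so that Combo stood with Day0, 6MP and CER. Combo exceeded Vehicle by 0.95 ± 0.25 (limma adjusted p = 0.014) and LSD1i by 1.19 ± 0.25 (limma adjusted p = 0.038, 95% confidence interval 0.69 to 1.69), a 2.28-fold change. Of the other contrasts, LSD1i against Vehicle was small, at -0.24 ± 0.25 (limma adjusted p = 0.61), and 3 were larger but did not pass. Vehicle against Day0 gave -0.87 ± 0.25 (limma adjusted p = 0.16), 6MP against Vehicle 0.77 ± 0.25 (0.67) and CER against Vehicle 0.76 ± 0.25 (0.16). This is a weak site, with 28 to 91 fragments at the summit, and the difference of Combo from LSD1i missed the threshold without any 1 of the 4 libraries (limma adjusted p = 0.097 to 0.54). That of Combo from Vehicle missed it without Vehicle replicate 1 (limma adjusted p = 0.11), Combo replicate 1 (0.073) or Combo replicate 2 (0.13). No deposited table used here lists it for Cd44, and overlaps with rows under other gene symbols are not given for this region.

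The region 71.0 kb upstream (chr2:102972637-102973390) also lies between genes, nearer to Pdhx. Its signal was 5.31 and 5.39 in Day0, 4.84 and 5.41 in Vehicle, 5.50 and 5.86 in LSD1i, 5.43 and 5.38 in 6MP, 5.20 and 5.06 in CER and 5.57 and 5.49 in Combo. The 4 libraries with the LSD1 inhibitor were the highest (5.49 to 5.86), but the next library, 6MP replicate 1 at 5.43, lay only 0.06 below them. The Combo table chose this region and rests on the same Vehicle libraries, so its differences from Vehicle are descriptions. LSD1i exceeded Vehicle by 0.55 ± 0.16, which is among the 8 that passed. It no longer passed when Vehicle replicate 1 was left out (0.26), nor in the fits lacking either LSD1i library (0.73 without the first, 0.37 without the other). Combo exceeded Vehicle by 0.40 ± 0.16; the authors' deposited table lists 0.59 (FDR 0.0166) for it.

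Scored by the authors' deposited fold over the local background instead of the pileup, each of the 8 Cd44 calls was lost. The differences at -65.7 kb were then 0.75 in LSD1i (limma adjusted p = 0.16) and 0.51 in Combo (limma adjusted p = 0.38), and at +85.7 kb 0.50 and 0.22. Under this measure 47 regions of all genes were called in LSD1i against Vehicle, where the pileup gave 2501. With scaling by depth, without centring, the difference at -65.7 kb was 1.31 in LSD1i (limma adjusted p = 0.14) and 1.62 in Combo, which still passed. At +85.7 kb, taken by the gene window, each of the 3 calls was lost under that scaling, with 0.84 in LSD1i (limma adjusted p = 0.69), 1.11 in Combo (limma adjusted p = 0.11) and 1.12 in Vehicle against Day0 (limma adjusted p = 1.0).

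**Figure D4:**
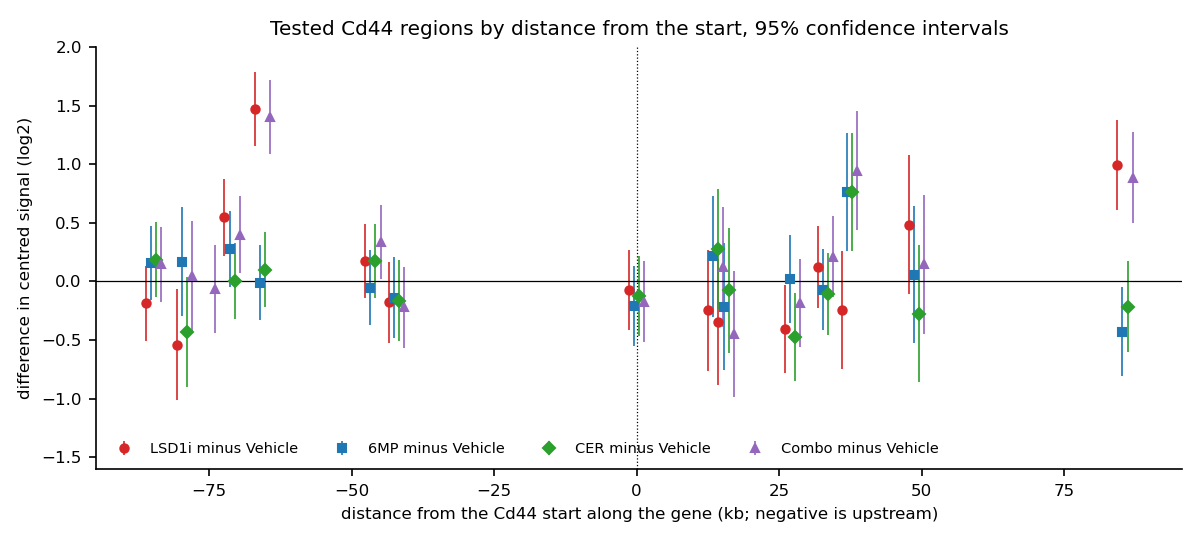
Difference in centred summit signal from Vehicle (log2, vertical axis, limma estimate with 95% confidence interval) of each tested Cd44 region by its distance from the start (kb, horizontal axis), for the 4 drug groups; points of 1 region are set slightly apart. LSD1i and Combo lie near 1.4 at -65.7 kb and near 0.9 at +85.7 kb, while the intervals at the start all include 0.

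The other Cd44 regions did not pass in any comparison. The most open of them, 42.1 kb upstream (chr2:102943784-102944839), exceeded the start itself and had signals of 6.79 and 6.82 in Day0, 7.04 and 7.22 in Vehicle, 6.99 and 6.91 in LSD1i, 6.80 and 7.18 in 6MP, 6.99 and 6.94 in CER and 6.94 and 6.88 in Combo. All 12 values lie between 6.79 and 7.22 with no group apart. The authors' deposited table for LSD1i lists it as closed, with a fold of -0.40 (FDR 3.22e-05), where the centred signal differed by -0.18 ± 0.17. The region 46.3 kb upstream is listed as opened in Combo (fold 0.52 in the authors' deposited table, FDR 0.0332), and its centred signal differed by 0.34 ± 0.15 in that contrast. The region 79.3 kb upstream is listed as closed in LSD1i (fold -0.83 in the authors' deposited table, FDR 0.000137), and its centred signal differed by -0.54 ± 0.23.

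The start of Cd44 (chr2:102898755-102901779) had signals of 6.39 and 6.22 in Day0, 6.45 and 6.50 in Vehicle, 6.47 and 6.34 in LSD1i, 5.92 and 6.62 in 6MP, 6.43 and 6.27 in CER and 6.40 and 6.22 in Combo. Both the lowest and the highest library are of the 6MP group, the lowest being replicate 1, whose enrichment was weakest of the series. The 6 differences there ran no further than -0.21 ± 0.17 (6MP against Vehicle, 95% confidence interval -0.55 to 0.13). The authors' deposited table for LSD1i lists the promoter as closed by -0.23 (FDR 0.028).

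For Selplg, which encodes the selectin ligand by which leukocytes roll, 7 regions were found (gene body chr5:113817798-113832528, minus strand), 3 of them in all 12 libraries. None overlapped the annotated start; the nearest lay 1.5 kb inside the gene body (chr5:113829967-113831002) with signals of 5.92 and 5.98 in Day0, 5.83 and 5.33 in Vehicle, 5.82 and 5.54 in LSD1i, 5.37 and 5.71 in 6MP, 5.67 and 5.46 in CER and 5.52 and 5.71 in Combo. Day0 was highest there, and Vehicle lay 0.37 ± 0.16 lower than Day0 (limma adjusted p = 0.38), with a wide gap between the 2 Vehicle libraries; without Vehicle replicate 1 the difference was -0.62 and passed (limma adjusted p = 0.044). The strongest region of the window, 9.0 kb upstream, lies in the body of the neighbouring gene Coro1c, with signals of 6.75 and 6.66 in Day0, 6.75 and 6.73 in Vehicle, 6.62 and 6.44 in LSD1i, 6.62 and 6.95 in 6MP, 6.79 and 6.65 in CER and 6.70 and 6.71 in Combo. Its 12 values span 6.44 to 6.95, and the groups overlap.

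A short Selplg region, 4.5 kb upstream (chr5:113836999-113837268), was called in both LSD1i libraries and in no other. Its signals there were 4.23 and 4.27, in peaks of 244 to 251 bp that stood 1.84-fold and 2.1-fold over their local background. The authors' deposited table for LSD1i lists it with levels of 7.69 in Vehicle and 8.36 in LSD1i (fold 0.68, FDR 0.0016), so reads were present in Vehicle too. The shortest peaks listed in the 12 libraries measure 199 to 252 bp, and a peak this short can miss the list where the signal is similar.

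Icam1, the endothelial and leukocyte counter-receptor of Itgb2 integrins, had 3 regions, all called in every library (gene body chr9:21015940-21028814). The start (chr9:21014683-21017464) had signals of 6.36 and 6.16 in Day0, 6.07 and 6.05 in Vehicle, 6.27 and 6.10 in LSD1i, 6.03 and 6.02 in 6MP, 6.35 and 6.19 in CER and 6.13 and 6.15 in Combo. The values span 6.02 to 6.36, and the furthest difference was 0.21 ± 0.14 (CER against Vehicle, limma adjusted p = 0.59). The 2 other regions lie 13.4 and 17.2 kb past the start on the neighbouring Icam4 and Icam5 genes. The stronger had signals of 6.67 and 6.65 in Day0, 6.69 and 6.59 in Vehicle, 6.46 and 6.31 in LSD1i, 6.34 and 6.59 in 6MP, 6.72 and 6.65 in CER and 6.38 and 6.25 in Combo. The 4 libraries with the LSD1 inhibitor and 6MP replicate 1 were the lowest 5 of the 12 there; LSD1i differed from Vehicle by -0.25 ± 0.15 and Combo by -0.32 ± 0.15 (limma adjusted p = 0.35 and 0.21). At +17.2 kb the difference in LSD1i was -0.44 ± 0.15 (limma adjusted p = 0.074), and it passed without Vehicle replicate 2 (-0.62, limma adjusted p = 0.017).

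Among the alpha chains, Itga4 had 18 regions (gene body chr2:79255426-79333114), but only 2 were called in all 12 libraries and 10 in a single library. Its start (chr2:79254521-79256379) had signals of 7.08 and 7.02 in Day0, 7.14 and 7.42 in Vehicle, 7.33 and 7.24 in LSD1i, 6.89 and 7.33 in 6MP, 7.13 and 7.06 in CER and 7.23 and 7.10 in Combo. No group stood apart, and the furthest difference was 0.23 ± 0.19 (Vehicle against Day0, limma adjusted p = 0.68). The region 26.6 kb upstream (chr2:79227483-79228823), chosen by the Vehicle against Day0 table, had signals of 4.40 and 4.25 in Day0, 4.51 and 5.26 in Vehicle, 5.32 and 5.27 in LSD1i, 4.73 and 4.99 in 6MP, 4.41 and 4.84 in CER and 5.05 and 5.01 in Combo. The authors' deposited table lists it as opened in Vehicle against Day0, with levels of 9.08 and 8.29 (fold 0.79, FDR 0.00358), and it was the only row annotated to the 9 genes in that table. The centred signal gave 0.56 ± 0.19 in the same contrast. In LSD1i it lay 0.41 ± 0.19 over Vehicle, a description too since the Vehicle libraries are those of that table, and the LSD1i libraries were the highest of the 12. The 16 remaining Itga4 regions were weak, with signals of 1.52 to 2.61 apart from 1 peak called only in Day0 replicate 1.

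Itgal, the alpha chain of the lymphocyte function antigen, had 7 regions (gene body chr7:127296139-127335137), 4 of them in all libraries. Its start (chr7:127295866-127297439) had signals of 5.71 and 5.84 in Day0, 5.72 and 5.56 in Vehicle, 5.71 and 5.78 in LSD1i, 5.40 and 5.37 in 6MP, 5.66 and 5.54 in CER and 5.67 and 5.67 in Combo. The 2 6MP libraries were the lowest, 0.26 ± 0.14 below Vehicle (limma adjusted p = 0.995), and the other groups overlapped. The region 17.4 kb into the gene came nearest to the threshold in Combo, at -0.50 ± 0.16 (limma adjusted p = 0.053), and passed under 3 alternatives, among them without Combo replicate 1 (-0.74, limma adjusted p = 0.019). The authors' deposited table lists that region as closed in LSD1i, in exon 16 (fold -0.52, FDR 0.000189), where the centred signal differed by -0.30 ± 0.16. The strongest region of the window, 49.0 kb past the start, lies on Zfp768 and had signals of 7.06 and 7.12 in Day0, 7.10 and 6.97 in Vehicle, 6.97 and 6.64 in LSD1i, 6.75 and 7.21 in 6MP, 7.23 and 7.30 in CER and 6.80 and 6.96 in Combo; its values span 6.64 to 7.30 and the groups overlap.

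Itgam, the alpha chain of the complement receptor on neutrophils and macrophages, had 8 regions (gene body chr7:128062640-128118491), 6 of them in all libraries. Its start (chr7:128062381-128063641) had signals of 3.77 and 3.69 in Day0, 3.77 and 3.70 in Vehicle, 3.99 and 3.99 in LSD1i, 3.76 and 3.92 in 6MP, 4.05 and 3.97 in CER and 4.23 and 4.01 in Combo. The 2 Combo and 2 LSD1i libraries lay above the 4 Day0 and Vehicle libraries, as did the CER libraries, but the difference of Combo from Vehicle, 0.38 ± 0.21, did not pass (limma adjusted p = 0.30). Its strongest region, 37.9 kb into the gene (chr7:128100570-128101595), had signals of 5.00 and 5.11 in Day0, 5.03 and 4.73 in Vehicle, 4.57 and 4.68 in LSD1i, 4.67 and 5.09 in 6MP, 4.48 and 4.64 in CER and 4.41 and 4.60 in Combo. The highest 4 were in Day0, Vehicle and 6MP, and the lowest in Combo, with overlap between groups. The region at +35.7 kb came nearest to the threshold, at -0.78 ± 0.25 in Combo against Vehicle (limma adjusted p = 0.051), and the one at +52.4 kb lay 0.60 ± 0.27 higher in Combo and 0.59 ± 0.27 higher in LSD1i (limma adjusted p = 0.19 and 0.20). The region at +35.7 kb did pass as closed under 5 alternatives, among them without Vehicle replicate 2 (-0.98, limma adjusted p = 0.043). Differences within Itgam therefore had both signs, and none passed in the fit reported here. No row of the deposited tables used was annotated to Itgam.

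Itgax, the alpha chain used as a marker of dendritic cells and some macrophages, had 4 regions (gene body chr7:128129526-128150657), 2 of them in all libraries. Its start (chr7:128129012-128129642) was called in 11 libraries, with signals of 3.95 (replicate 1 alone) in Day0, 3.67 and 4.25 in Vehicle, 3.95 and 4.27 in LSD1i, 3.84 and 3.78 in 6MP, 4.14 and 3.69 in CER and 4.15 and 4.43 in Combo. The 2 Vehicle libraries span most of that range, and Combo lay 0.33 ± 0.23 above them (limma adjusted p = 0.44). The strongest region was 3.8 kb into the gene (chr7:128133302-128134358), with signals of 4.99 and 5.42 in Day0, 5.21 and 4.92 in Vehicle, 5.21 and 5.22 in LSD1i, 5.03 and 5.29 in 6MP, 5.36 and 5.65 in CER and 5.40 and 5.38 in Combo. CER, Combo and Day0 replicate 2 were highest, and no comparison passed. A short region 2.6 kb into the gene was called in the 2 Day0 libraries alone, with signals of 3.52 and 3.49. No row of the deposited tables used was annotated to Itgax, nor to Icam1.

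Itgb2, the common beta chain of Itgal, Itgam and Itgax, had 7 regions (gene body chr10:77530329-77565708), 5 of them in all libraries. Its start (chr10:77530010-77532041) was also its strongest region, with signals of 6.12 and 6.26 in Day0, 6.17 and 6.01 in Vehicle, 6.09 and 6.04 in LSD1i, 5.93 and 6.43 in 6MP, 6.17 and 6.19 in CER and 6.20 and 6.10 in Combo. Both extremes belong to the 6MP group, and the furthest difference was -0.11 ± 0.15 (Vehicle against Day0, limma adjusted p = 0.83). The authors' deposited table for LSD1i lists the promoter as closed by -0.44 (FDR 8.88e-05) and a region in intron 1 by -0.34 (FDR 0.0122); the centred signals differed by -0.02 ± 0.15 and 0.11 ± 0.16. A region in intron 3, 14.5 kb into the gene (chr10:77544834-77545227), was called in both Combo libraries and in no other, with signals of 3.55 and 3.18, 4.28-fold to 5.50-fold over local background. The authors' deposited table for Combo lists it with levels of 6.40 in Vehicle and 7.65 in Combo (fold 1.25, FDR 3.08e-05), and the table for LSD1i does not list it under Itgb2.

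Itgb7, the other beta chain of Itga4, had 4 regions, all called in every library (gene body chr15:102215994-102233405, minus strand). The region at its RefSeq promoter, 1.4 kb inside the longest gene body (chr15:102230652-102232048), had signals of 5.77 and 5.67 in Day0, 5.73 and 5.64 in Vehicle, 5.36 and 5.50 in LSD1i, 5.53 and 5.98 in 6MP, 5.50 and 5.52 in CER and 5.30 and 5.36 in Combo. Combo had the lowest mean, 0.35 ± 0.15 below Vehicle (limma adjusted p = 0.14), and 6MP replicate 2 highest. The strongest region, 7.5 kb into the gene (chr15:102224392-102225894), had signals of 6.59 and 6.47 in Day0, 6.49 and 6.56 in Vehicle, 6.59 and 6.37 in LSD1i, 6.04 and 6.72 in 6MP, 6.42 and 6.28 in CER and 6.38 and 6.46 in Combo. The lowest value, 6.04, was in 6MP replicate 1 and the highest, 6.72, in 6MP replicate 2, and no comparison passed. The authors' deposited table for LSD1i lists both as closed, by -0.49 (FDR 0.000311) and -0.32 (FDR 0.0053); the centred signals differed by -0.26 ± 0.15 and -0.05 ± 0.17.

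At these genes the authors' deposited table for LSD1i called many regions closed where the centred signal called none. That table annotates 13 regions to the 9 genes, 2 opened (Cd44 and Selplg) and 11 closed (6 of Cd44, 2 each of Itgb2 and Itgb7, 1 of Itgal). Of these 11, 9 could be tested on the centred signal, where 8 were lower and 0 passed, with differences of -0.54 to 0.11. Scaled by depth without centring they ran from -0.69 to -0.04. With rows annotated to other genes included, 24 of the 82 regions overlapped a closed row and 3 an opened one. Over the 73 regions chosen by window, 19 (26.03%) overlapped a region that the authors' deposited LSD1i table lists as closed, against 24.1% of all regions, and 2 (2.74%) one listed as opened, against 4.80%. In the authors' deposited table for Combo, 5 of 73 (6.85%) overlapped an opened region, against 9.30%, and 0 a closed one, against 1.56%. In that for Vehicle against Day0, 1 of 73 (1.37%) overlapped an opened region, against 0.981%, and in that for CER 0 overlapped a closed one, against 0.231%. These shares are descriptions of the lists and were not tested.

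Related adhesion genes, in lists chosen with earlier results of these data known, held calls in both directions. Of all regions tested, 4.00% opened and 2.05% closed in LSD1i against Vehicle, with a median difference of -0.04, and 4.96% and 3.11% in Combo, with a median of -0.09. Among 15 other leukocyte integrin subunits, 1 of 65 tested regions opened in LSD1i (Itga2) and 4 closed (at Itga5, Itgb3 and Itgb5), with a median difference of -0.11, and in Combo 1 of 69 opened and 5 closed (median -0.06). Among 12 selectins, ligand scaffolds and glycosyltransferases that build selectin ligands, 1 of 38 opened and 2 closed in LSD1i (median -0.18), and 2 of 40 opened and 3 closed in Combo (median -0.14). Among 16 other adhesion receptors, 0 of 54 opened and 2 closed in LSD1i (median -0.22), and 1 of 57 opened and 4 closed in Combo (median -0.22). Among 17 genes that activate integrins or link them to the cytoskeleton, 1 of 81 opened and 2 closed in LSD1i (median -0.12), and 3 of 82 opened and 1 closed in Combo (median -0.10). In LSD1i each of the 4 lists had a smaller share opened than all regions, a difference that was not tested. No region of these 4 lists passed in Vehicle against Day0, 6MP, CER or Combo against LSD1i.

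The 2 regions of each list with the smallest p in LSD1i against Vehicle show the size of these changes. At Tpst1, a sulfotransferase that can modify the product of Selplg, an intragenic region (chr5:130088916-130090035) rose by 1.05 ± 0.18 (limma adjusted p = 0.00026), with signals of 4.73 and 4.51 in Day0, 4.57 and 5.28 in Vehicle, 6.11 and 5.83 in LSD1i, 5.07 and 5.02 in 6MP, 4.69 and 4.87 in CER and 5.86 and 5.57 in Combo. At its paralogue Tpst2 a region (chr5:112282870-112283835) fell by 0.77 on the log2 scale (SE 0.14, limma adjusted p = 0.00096), with signals of 6.23 and 6.10 in Day0, 6.46 and 6.15 in Vehicle, 5.50 and 5.57 in LSD1i, 6.18 and 6.22 in 6MP, 6.24 and 5.94 in CER and 5.43 and 5.56 in Combo. The LSD1i and Combo libraries were all above the others at Tpst1 and all below them at Tpst2. Near Itga5, an alpha chain of the fibronectin receptor, a region (chr15:103376096-103379005) fell by 0.80 (SE 0.16, limma adjusted p = 0.0019), and in Itgb3, a beta chain of platelet integrins, one fell by 0.62 (SE 0.16, limma adjusted p = 0.015). In the window of the tetraspanin gene Cd151 a region that lies on Pnpla2 fell by 0.84 (SE 0.19, limma adjusted p = 0.0045), and in that of Cd63 one on Gdf11 fell by 0.62 (SE 0.19, limma adjusted p = 0.049). In Cyth1, which binds the tail of Itgb2, a region rose by 0.82 ± 0.22 (limma adjusted p = 0.019), and in Rap1a, a small GTPase that activates integrins, one fell by 0.77 (SE 0.21, limma adjusted p = 0.026).

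The 12-library profile of the Cd44 region 65.7 kb upstream was shared by many sites. Among 33326 other regions called in all libraries, 314 had a Pearson r above 0.9 with it. The 5 at other genes with the highest r lay nearest to Ankrd50 (0.983), Sptssa (0.979), Dennd2a (0.978), Tm4sf5 (0.977) and Tcf7l2 (0.976). These are descriptions over 12 libraries that share their groups.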

How the data were processed

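The submitters' processing notes name DiffBind, MACS2 2.1.2, Picard 2.18.26, SAMtools 1.9, Bowtie2 and Trimmomatic 0.38, and the build mm10; settings are not given in the sources used here. The authors deposited 1 peak list per library (12 in all), in which each summit has an integer score, a fold ratio over local background and the -log10 of a p-value and a q-value. In the deposited comparison tables the authors give log2 levels and folds, p-values and FDR of regions with an FDR of 0.05 or less; the mercaptopurine table was left out, and read totals are not given in the sources used here.

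Fold and -log10 p were solved for the pileup and background of each summit, and the pileup was a whole number (tolerance 0.001 in -log10 p) for 100% of them. Overlapping peaks of the 12 lists were merged to 73156 union regions. Log2 of the highest pileup in a region over the lowest background of its library (its depth, 2.44 to 4.55 fragments) was centred on the regions called in all libraries. Pileups reached down to 10 to 14 fragments at the weakest summits, where counting error limits the precision. Groups were compared with limma 3.58.1 in R 4.3.3, fitted over all 12 libraries with a trended prior variance. Tests covered regions called in all 4 libraries compared and were two-sided, with Benjamini-Hochberg adjustment over all regions tested at 0.05. In simulated data with the same noise in every region, the procedure recovered 10% of 200 regions changed by 0.5 (log2) and 96% of those changed by 1. A region that did not pass can therefore still differ by 0.5, and one with more noise than simulated by more. At Cd44 +37.4 kb a difference of -0.87 ± 0.25 (Vehicle against Day0, log2, SE) did not pass. With 2 libraries against 2 an exact permutation test of 1 value cannot reach 0.05. A region that passed is called opened when higher and closed when lower. Genes were named and placed with RefSeq on GRCm38.p6.

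The 9 genes, the lists of related genes and the tests were chosen with earlier results of these data known. Regions named are those past the threshold in any comparison, that at each start, the strongest of each gene, the 2 of each list with the smallest p in LSD1i against Vehicle and the 5 most alike to the leading Cd44 region; other regions named were chosen after their values were seen. Replicate numbers did not pair the libraries: deviations of libraries with the same number correlated between -0.34 and 0.25 over 15 pairs of groups. Alternatives were other scalings, the deposited local fold, imputed or stricter peak sets, a fit on 4 libraries, a block or a library-name term, and leaving out each library.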

Additional observations from a re-analysis of the deposited data

Results flagged for a closer look

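At the Cd44 region 37.4 kb into the gene, the effect of all 3 drugs and that of the LSD1 inhibitor alone differed: Combo exceeded LSD1i by 1.19 ± 0.25 (log2, SE, n = 2 per group, limma adjusted p = 0.038), with no overlap between the 2 groups. The call was lost in every fit that left out 1 of these 4 libraries.

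In 3 places a peak was called in both libraries of a treated group and in no Vehicle or Day0 library. The mean summit signal there was 4.25 at Selplg, 4.5 kb upstream, in LSD1i, and 3.37 at Itgb2, 14.5 kb into the gene, in Combo. At the region 80.6 kb past the start of Itga4, which lies on Cerkl, it was 2.31 in Combo. That peak is weak, with pileups of 26 and 27 fragments. The authors' deposited tables give Vehicle levels of 7.69 at the Selplg region and 6.40 at the Itgb2 region. A peak missing from a list is therefore not an absence of reads.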

How the results depend on the processing

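The count of called regions of the 9 genes differed from that reported in 42 of 90 alternative values, with the 4 counts of the deposited tables included, and by more than 1.5-fold in 31 of these. In 2 others the number was the same but not the directions: without Combo replicate 1, and Combo against LSD1i with imputation, where the call was 1 closed region (Selplg, 4.5 kb upstream). Imputation admits such a region only through the group that holds the peak, so its imputed calls are not used. The differences of the 8 calls at Cd44 kept their sign under every alternative run. Scaled by depth alone the counts were 0 in Vehicle against Day0 (1 as reported) and 0 in LSD1i (3); the deposited local fold gave 0 in these and in Combo (3) and Combo against LSD1i (1). For Vehicle against Day0 the count was also 0 with centring by intensity, imputation, the fit on 4 libraries, summits with -log10 q of 5 or more, and summits within 250 bp of the strongest. Combo against LSD1i gave 3 in the fit on 4 libraries and 0 with summits of -log10 q of 5 or more. A term for the library-name suffix R gave 4 in Vehicle against Day0, 2 in CER (0 as reported) and 5 in Combo. That term does not separate the suffix P, which both Day0 libraries and no others carry. Leaving out 1 library gave 0 to 3, 1 to 5, 0 to 0, 0 to 1, 1 to 5 and 0 to 0 calls in Vehicle against Day0, LSD1i, 6MP, CER, Combo and Combo against LSD1i. An FDR of 0.01 or less left 2 of the 4 regions that the deposited Combo table annotates to the 9 genes. A replicate block, for numbers that do not pair the libraries, gave 1, 3, 0, 0, 4 and 1 in the same order. An alternative chosen after seeing the data blocked on the library-name suffix in a fit on the 4 libraries. It gave 13 in Combo (7 opened, 6 closed), with 10248 of 42679 regions of all genes called, and 0 in 6MP. Outside Cd44, 13 regions of 7 genes passed under at least 1 alternative, Itgam +35.7 kb in Combo under 5 (limma adjusted p = 0.0016 to 0.0497) and Itgal +17.4 kb in Combo under 3 (0.0017 to 0.019). The cause of each change was not tested. Motif windows around summits were not run, as no genome was used here. Weak summits and peaks near the shortest listed width limit what can be compared.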
